A study of Mus musculus with 6 samples.

Results

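The genes described here are 5 aquaporins and 4 glucose carriers, taken by symbol from the deposited count table: Aqp1, Aqp4, Aqp7, Aqp9 and Aqp11, and Slc2a1, Slc2a3, Slc2a6 and Slc2a8. All 9 are among the 14943 genes of the table. The study sequenced RNA of peritoneum from wild-type male C57BL/6J mice aged 8 weeks, in 3 libraries of an encapsulating peritoneal sclerosis (EPS) model and 3 saline control libraries. Daily intraperitoneal injections gave the EPS mice dialysis solution of 4.25% strength (100 mL/kg) plus 0.3 mL of what the labels call SHS. Endotoxin (lipopolysaccharide) was added weekly at a dose of 4 mg/kg. Control mice received saline in the same volume, and all mice were killed in week 3. Since the EPS mice received every agent together, dialysis solution, SHS and endotoxin cannot be told apart here. Nothing in the labels says whether a library came from 1 mouse or from pooled tissue, so p-values measure the spread between these libraries, which may be technical.

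Peritoneal dialysis draws water and solutes across the peritoneum with a hypertonic glucose solution. Aquaporins are membrane pores: Aqp1 and Aqp4 pass water, Aqp7 and Aqp9 (the aquaglyceroporins) also pass glycerol, and Aqp11 is a distant relative of the endoplasmic reticulum. Aqp1, in capillary endothelium and mesothelium, is the water pore on which the water flow of dialysis depends. Proteins of the Slc2a (GLUT) family carry hexoses down their gradient: Slc2a1 and Slc2a3 take up glucose at the cell surface, while Slc2a6 and Slc2a8 lie mainly on internal membranes.

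Library depth was 15419232 to 16651797 counts in EPS and 16092608 to 17684229 in control libraries. Values are CPM, read counts brought to a common library size, with sizes scaled by TMM, edgeR's correction for RNA composition. Both groups held all 11 mesothelial markers searched, with a summed level of 60.8 to 406 CPM in EPS and 155 to 242 CPM in control libraries. Adipocyte markers were far more abundant, at 2285 to 3851 CPM in EPS and 25350 to 26050 CPM in control libraries. EPS 1 and EPS 2 each stood apart by transcripts known from another organ. The 11 exocrine pancreas markers summed to 147900 CPM in EPS 1, against 158 and 496 CPM in EPS 2 and EPS 3 and 309 to 3564 CPM in controls. Crisp1, a secretory protein gene of the epididymis, stood at 690 CPM in EPS 2, against 0.346 and 0.0495 CPM in EPS 1 and EPS 3 and at most 0.132 CPM in a control. Of 4 epididymal markers searched, only Crisp1 was among the genes of the table, without Lcn5, Adam7 and Spink13. Another 6 genes known from the epididymis, Spink8, Serpina1f, Eddm3b, Defb42, Defb43 and Ces5a, were chosen after their values were seen. They ranged from 7.05 to 201 CPM in EPS 2 and did not exceed 0.485 CPM in any other library. Chosen this way, they are no independent support for the pattern. Controls 1 and 2 were the closest pair of libraries (chi-square of 4.41 on average over genes), and control 3 differed more from both (15.9 and 16.4).

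The set moved in both directions. The abundant pores of the control peritoneum, Aqp1 and Aqp7, fell in EPS together with Aqp11, while the glycerol pore Aqp9 and the glucose carriers Slc2a1, Slc2a3 and Slc2a6 rose. Slc2a8 fell by less. Of the 9 genes, 8 passed the filter on low counts, and 4 of these were higher and 4 lower in EPS at an adjusted p under 0.05. Of all 13980 genes tested, 59.6% were called, 29.2% higher and 30.4% lower, so a call by itself does not set the genes apart. EPS and control libraries did not overlap in CPM for any of the 9 genes, which also held for 68.5% of all genes tested. The median log2 fold change of the 8 genes was 0.07, beside -0.02 over all genes tested. Aqp4 did not pass the filter.

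**Figure D1:**
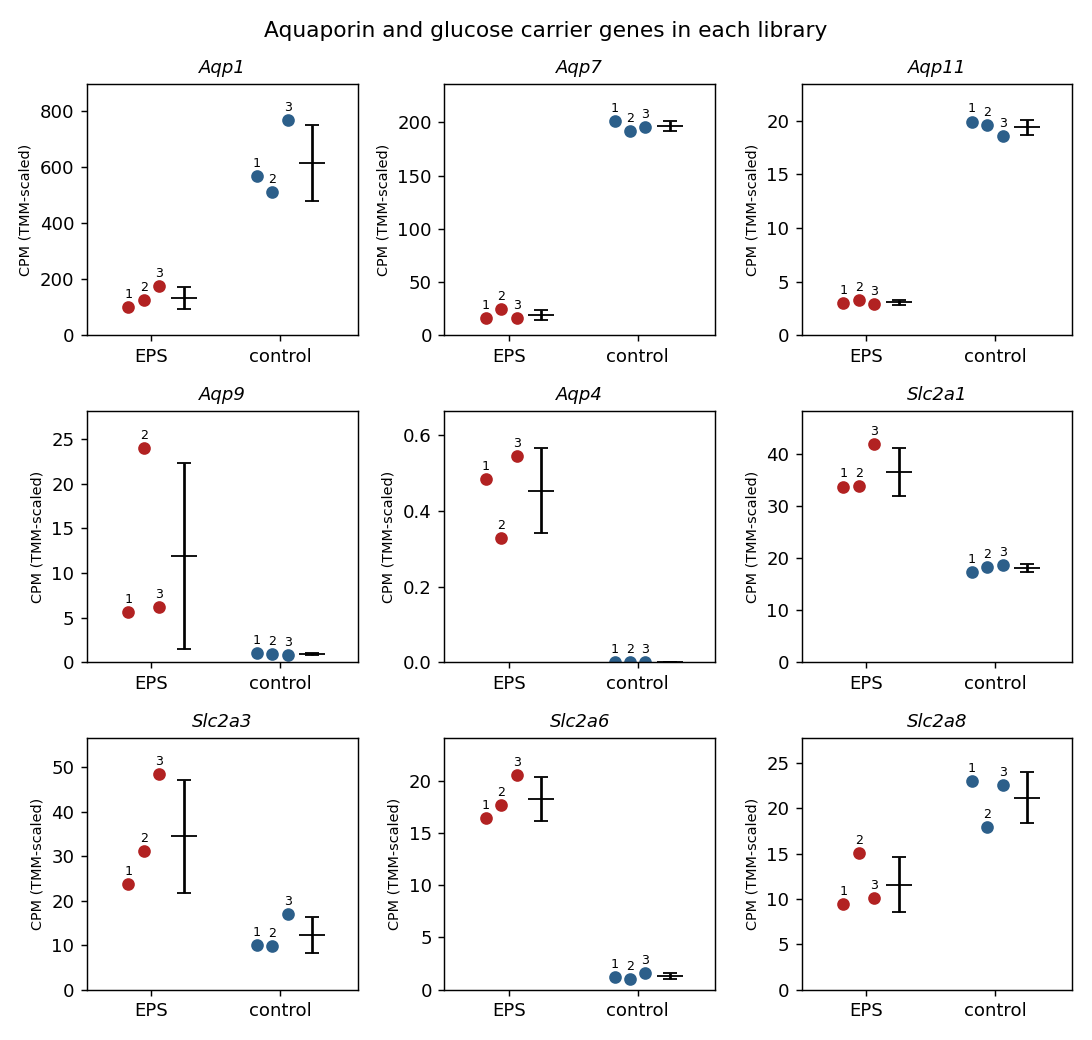
Level of each gene in each library (vertical axis, CPM on TMM-scaled library sizes, each panel from 0), with EPS libraries left and control libraries right. Points are libraries, numbered, and the black mark is the mean with its SD over 3 libraries. Aqp1, Aqp7, Aqp11 and Slc2a8 lie lower in EPS, the other genes higher, and EPS 2 stands alone for Aqp9.

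Promoter sequences of 4 of the genes are shown because genes that changed by more than 2-fold came from promoters of very different base composition. Each runs from 250 bases before to 50 bases after the RefSeq transcription start on GRCm38.p6, 5′ to 3′ on the gene's strand, with the most upstream start taken where several are listed. Slc2a1 is at chr4:119108495-119108794 (plus strand), Slc2a6 at chr2:27027949-27028248 (minus), Aqp7 at chr4:41048087-41048386 (minus) and Aqp9 at chr9:71163240-71163539 (minus). Capitals mark matches on either strand to the hypoxia response cores ACGTG and GCGTG, the GC box GGGCGG and the TATA box TATAAA.
Slc2a1: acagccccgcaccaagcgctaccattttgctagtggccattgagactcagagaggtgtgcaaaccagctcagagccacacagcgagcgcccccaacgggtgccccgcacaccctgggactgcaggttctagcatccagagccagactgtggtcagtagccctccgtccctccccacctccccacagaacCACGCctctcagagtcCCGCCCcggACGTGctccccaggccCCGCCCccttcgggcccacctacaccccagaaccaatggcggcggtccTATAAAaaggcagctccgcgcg
Slc2a6: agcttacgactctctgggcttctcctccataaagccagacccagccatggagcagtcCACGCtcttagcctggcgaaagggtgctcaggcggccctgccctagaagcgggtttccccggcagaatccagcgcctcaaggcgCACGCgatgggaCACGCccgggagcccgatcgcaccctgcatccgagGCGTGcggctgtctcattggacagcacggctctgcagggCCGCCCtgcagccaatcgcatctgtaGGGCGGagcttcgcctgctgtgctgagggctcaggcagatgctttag
Aqp7: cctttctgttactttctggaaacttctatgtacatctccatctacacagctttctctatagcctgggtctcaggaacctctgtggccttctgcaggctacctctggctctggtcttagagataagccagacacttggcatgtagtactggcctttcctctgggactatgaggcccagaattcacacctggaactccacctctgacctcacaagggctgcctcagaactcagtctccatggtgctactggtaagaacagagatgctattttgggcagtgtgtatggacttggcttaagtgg
Aqp9: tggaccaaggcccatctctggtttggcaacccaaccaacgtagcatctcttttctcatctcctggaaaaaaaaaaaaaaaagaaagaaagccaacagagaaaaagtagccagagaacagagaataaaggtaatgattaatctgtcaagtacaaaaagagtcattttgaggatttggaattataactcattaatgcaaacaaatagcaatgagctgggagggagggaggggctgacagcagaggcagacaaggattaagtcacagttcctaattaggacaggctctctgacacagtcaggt

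The Slc2a1 promoter held 1 ACGTG, 1 GCGTG, 2 GC boxes and 1 TATA box, and that of Slc2a6 held 4 GCGTG and 2 GC boxes. Among genes that fell, Aqp11 held 5 GCGTG, the most of the 7 genes with a RefSeq promoter here, Slc2a8 held 1 GCGTG and Aqp1 held 1 GC box. None of these motifs was in the windows of Aqp7, which fell, and Aqp9, which rose. Among 11767 promoters of genes in the table, 24.5% held ACGTG, 48.7% GCGTG, 60.9% GGGCGG and 7.97% TATAAA. CpG dinucleotides numbered 18 in the Slc2a1 window and 22 in that of Slc2a6, against 27 for Aqp11, 14 for Slc2a8, 8 for Aqp1, 0 for Aqp7 and 1 for Aqp9, with a median of 19 over all promoters. The AP-1 motif TGANTCA (5.36% of promoters), the E-box CACGTG (9.55%), which contains ACGTG, and the NF-kappaB motif (5.24%) had no match in the windows of these 7 genes. The PU.1 core GAGGAAG (13.5%) matched once, in Aqp1. Such matches describe letters and do not show binding.

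Aqp1, the water pore of capillaries and mesothelium (chromosome 6, 55336432 to 55348555), was the most abundant gene of the set. Its level was 99.8, 127 and 177 CPM in the EPS libraries 1 to 3, against 567, 509 and 768 CPM in controls 1 to 3. Every EPS library lay under every control, and control 3 was the highest of all. Aqp1 fell 4.57-fold, with a log2 fold change of -2.19 ± 0.25 (SE, n = 3 each) and an adjusted p of 0.000184 by edgeR's quasi-likelihood test with Benjamini-Hochberg adjustment, which gave all adjusted p-values below. Fold changes of other genes written with ± are likewise on the log2 scale with their SE. In tissue sequenced in bulk, fewer cells of a type and less RNA per cell cannot be told apart.

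Markers of blood endothelium, which carries Aqp1, were lower too. Of 10 blood endothelial markers, 9 fell and 1 did not pass, and their summed level was 1216 to 1588 CPM in EPS and 2575 to 2653 CPM in controls. Relative to the mean log2 CPM of these markers, Aqp1 lay at 0.58, 0.60 and 0.98 in EPS 1 to 3 and at 1.64, 1.47 and 2.08 in controls 1 to 3. The groups did not overlap, and the difference of -1.01 exceeded the pooled SD of 0.27. Tek (-1.75 ± 0.10), a receptor of blood vessels, Esam (-1.62 ± 0.16), an adhesion molecule of endothelium, and Cdh5 (-1.38 ± 0.14), its cadherin, had the lowest adjusted p of the list. None of the 11 mesothelial markers was called by edgeR, 0 had an unadjusted p under 0.05, limma-voom called 0 and DESeq2 called 2. Their median log2 fold change was 0.09, over genes that moved in both directions. Upk3b had 51.6, 42.7 and 11.3 CPM in EPS and 95.5, 94.4 and 65.8 CPM in controls (adjusted p = 0.0967). The keratin genes Krt8 and Krt18 had 86.3 and 106 CPM in EPS 1, where the list summed to 406 CPM. In EPS 2 they had 32.8 and 23.8 CPM, in EPS 3 1.88 and 1.49 CPM, and in controls at most 5.21 and 5.02 CPM. Whether these keratin transcripts came from mesothelium was not tested. Red blood cells also hold Aqp1 protein. Their 6 measured markers summed to 17.5 to 182 CPM in EPS and 50.5 to 408 CPM in controls. Each of edgeR, DESeq2 and limma-voom called 0 of them, and 0 had an unadjusted p under 0.05 by edgeR. Among controls their lowest sum was in control 3, where Aqp1 was highest. In EPS 1 to 3 they summed to 17.5, 132 and 182 CPM, in the same order as Aqp1. The part of any cell type in the Aqp1 result was not tested.

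Aqp4, the water pore of glia and fast muscle fibres, had 7, 7 and 11 counts in EPS 1 to 3 and no count in any control. These levels of 0.485, 0.329 and 0.545 CPM are near the limit of detection, and the control group's 0 allows up to 3 counts. Against that floor of 3 counts over the group, the observed EPS counts put Aqp4 6.60-fold higher in EPS. With any one control left out the fold was 4.34 to 4.51. That fall was set in advance, since the floor stayed at 3 counts over fewer control reads. With any one EPS library left out the fold was 5.78 to 7.67. The 25 EPS counts carry an exact 95% Poisson interval of 16.2 to 36.9, which covers counting error only. These folds leave that error out, so they are not lower limits. The filter on low counts left Aqp4 out of the main test. With no such filter it was called higher (adjusted p = 0.0136). Of the 9 measured fast muscle markers, 3 were higher, 2 lower and 4 not called, and their sum was 10.95 to 74.6 CPM in EPS and 36.9 to 54.5 CPM in controls. The lead muscle genes differed in direction: the troponin gene Tnni2 rose by 2.55 ± 0.59 and the myosin light chain gene Mylpf by 1.74 ± 0.43, while the creatine kinase gene Ckm fell by 2.35 ± 0.64. The 4 Schwann cell markers, of peripheral glia, summed to 15.8 to 33.2 CPM in EPS and 33.1 to 47.4 CPM in controls, with 2 lower and 2 not called. The part of muscle or glia in the Aqp4 counts was not tested. Of the dystrophin-associated proteins that anchor Aqp4, 3 of 4 genes fell, among them Dag1 (-1.02 ± 0.12) and Dtna (-1.56 ± 0.25). Over all genes tested, 30.4% were called lower.

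Aqp7, the pore through which fat cells release glycerol (chromosome 4, 41033074 to 41048139), had 16.4, 24.5 and 16.1 CPM in EPS and 202, 192 and 196 CPM in controls. Controls were tight, and no EPS library came near them. Its level was 10.3-fold lower in EPS (log2 fold change -3.37 ± 0.18, adjusted p = 3.799e-06). All 9 adipocyte markers fell, with a median of -3.46. Relative to their mean log2 CPM, Aqp7 stood at -2.59, -2.61 and -3.33 in EPS and at -2.73, -2.80 and -2.81 in controls. These values overlapped, and the difference of -0.06 was smaller than the pooled SD of 0.30. Relative to the median of the markers it was 0.33, of the other sign and above that SD. The markers of lowest adjusted p were the lipid droplet protein gene Plin4 (-3.86 ± 0.17), the fatty acid binding protein gene Fabp4 (-3.46 ± 0.18) and Cidec (-3.48 ± 0.18), which fuses lipid droplets.

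Most genes that make, release and use glycerol were lower as well. Among 9 tested, 6 were lower and 3 were not called, where 30.4% of all genes tested were lower, and the median log2 fold change was -2.64. With library totals the dehydrogenase gene Gpd1l, outside the rule for named genes, was called higher (adjusted p = 0.0404). The lipases that split stored fat into glycerol and fatty acids all fell: Pnpla2 by 3.35 ± 0.17, Lipe by 3.30 ± 0.23 and Mgll by 3.38 ± 0.22. Gpd2, a mitochondrial glycerol phosphate dehydrogenase, fell to 47.1 to 51.7 CPM in EPS, against 241 to 272 CPM in controls. Gk, the glycerol kinase that traps glycerol inside cells, stood at 8.18, 11.1 and 5.00 CPM in EPS and 7.60 to 7.71 CPM in controls (0.08 ± 0.29, adjusted p = 0.819), chosen after its value was seen.

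Aqp9, a pore for glycerol, urea and water in liver, white blood cells and epididymis (chromosome 9, 71110659 to 71168682), went the opposite way. It had 82, 510 and 125 counts in EPS 1 to 3 and 15, 15 and 12 in controls 1 to 3. Its level was 5.68, 24.0 and 6.19 CPM in EPS and 1.07, 0.991 and 0.794 CPM in controls. EPS 2 stood far above the other EPS libraries, and all EPS libraries exceeded all controls. Aqp9 rose 12.5-fold (3.65 ± 0.65, adjusted p = 0.00226). EPS 2 is also the library with epididymal transcripts. Without it the log2 fold change was 2.64 (adjusted p = 0.000401). Crisp1 was at 0.346 and 0.0495 CPM in EPS 1 and EPS 3. The part of epididymal RNA in the Aqp9 result was not tested.

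White blood cell markers rose as well. All 10 neutrophil markers rose, summing to 626, 870 and 2051 CPM in EPS 1 to 3 and 4.56 to 5.50 CPM in controls, where Ly6g had no count. Likewise 9 of 10 macrophage markers rose, summing to 3525 to 4339 CPM in EPS and 696 to 799 CPM in controls. The neutrophil list was led by the cytokine receptor gene Csf3r (5.25 ± 0.21), the chemokine receptor gene Cxcr2 (7.65 ± 0.43) and the collagenase gene Mmp8 (8.72 ± 0.65). Neither sum was highest in EPS 2. Relative to the mean of the neutrophil markers, Aqp9 was at -2.60, -0.95 and -4.09 in EPS and 1.76, 1.70 and 1.67 in controls; the control values rest on markers near 0 and depend on the prior count of 2. The 4 measured hepatocyte markers summed to 1.74 to 9.15 CPM in EPS and 3.93 to 5.95 CPM in controls, and albumin (Alb) of that list was at most 0.901 CPM in EPS and 2.00 to 3.30 CPM in controls. The part of any cell type in the Aqp9 result was not tested.

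**Figure D2:**
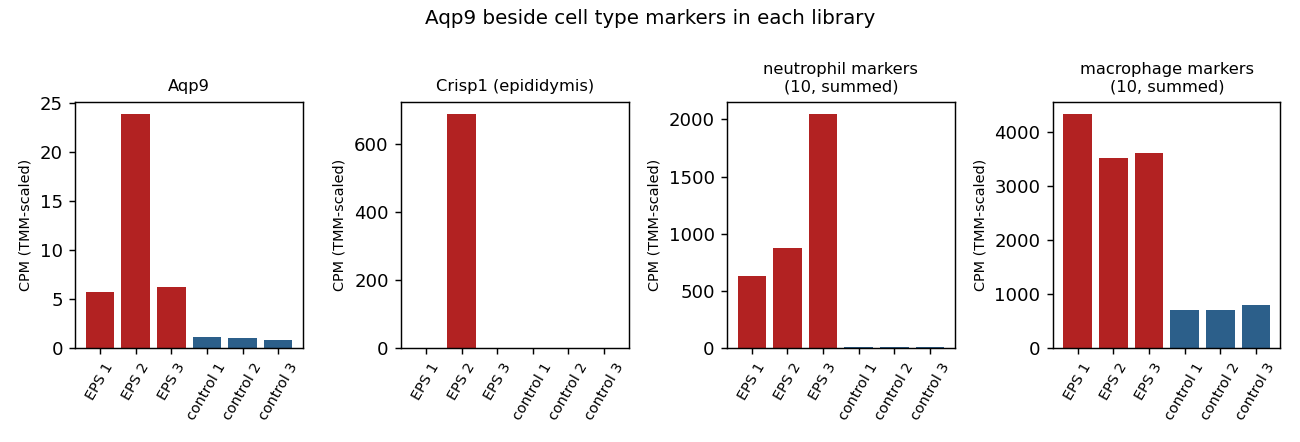
Aqp9, the epididymal gene Crisp1, and the summed levels of 10 neutrophil and 10 macrophage markers in each library (bars, CPM on TMM-scaled library sizes), with EPS libraries in red on the left and control libraries in blue on the right. Aqp9 and Crisp1 both peak in EPS 2, at 24.0 and 690 CPM, while the neutrophil sum peaks in EPS 3 and the macrophage sum in EPS 1.

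Aqp11, the endoplasmic reticulum relative (chromosome 7, 97724006 to 97738289), had 2.98, 3.34 and 2.92 CPM in EPS and 19.9, 19.6 and 18.6 CPM in controls. Both groups were tight and far apart. Aqp11 was 6.27-fold lower (-2.65 ± 0.16, adjusted p = 6.13e-06). Of the rest of the aquaporin family, 4 of 7 genes were in the table and 2 were tested. Aqp3, an aquaglyceroporin of epithelia and white blood cells, rose at low levels: it had 1.73, 1.97 and 3.27 CPM in EPS and 0.357, 0.132 and 0.265 CPM in controls (3.19 ± 0.51, adjusted p = 0.000975). Aqp12, a pancreatic aquaporin, was at 59.9 CPM in EPS 1, against 0.0940 and 0.396 CPM in EPS 2 and EPS 3 and 0.132 to 1.5 CPM in controls, and was not called (adjusted p = 0.203). Untested Aqp8, also of the pancreas, had 5.27 CPM in EPS 1 and at most 0.0661 CPM elsewhere. Both thus followed the library with pancreatic RNA.

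Slc2a1 (GLUT1), the widespread carrier of basal glucose uptake (chromosome 4, 119108711 to 119137983), had 33.7, 33.9 and 41.9 CPM in EPS and 17.3, 18.3 and 18.7 CPM in controls. Its groups were clearly apart, with EPS 3 the highest. Slc2a1 rose 2.02-fold (1.01 ± 0.13, adjusted p = 0.000335). An antisense gene shares 105 bases of its exons and is not in the table. No step that marks strand is named in the protocol, so reads from that stretch cannot be assigned to either gene.

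Slc2a3 (GLUT3), a high-affinity carrier of neurons and white blood cells (chromosome 6, 122727809 to 122801640), had 23.7, 31.1 and 48.4 CPM in EPS and 9.998, 9.85 and 17.0 CPM in controls. EPS 3 was the highest EPS library and control 3 the highest control, and the groups did not overlap. It rose 2.80-fold (1.49 ± 0.32, adjusted p = 0.00541). Like the neutrophil sum, Slc2a3 was lowest in EPS 1 and highest in EPS 3. In controls it was highest in control 3, where the neutrophil sum was lowest (4.56 CPM, against 5.50 and 5.35 CPM in controls 1 and 2). Relative to the neutrophil markers it stood at -0.56, -0.58 and -1.15 in EPS and at 4.85, 4.86 and 5.90 in controls, where the markers were near 0. All 8 lymphocyte markers rose too, summing to 756, 633 and 988 CPM in EPS 1 to 3 and 8.85 to 13.1 CPM in controls. The part of these cells in the Slc2a3 result was not tested.

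Slc2a6 (GLUT6), a carrier of internal membranes found in white blood cells (chromosome 2, 27021363 to 27027998), changed most among the carriers of the set. It had 16.5, 17.7 and 20.6 CPM in EPS and 1.21, 1.06 and 1.59 CPM in controls. The groups lay far apart and varied little within. Slc2a6 rose 14.1-fold (3.82 ± 0.22, adjusted p = 5.47e-06). Macrophage markers had a median change of 2.42, with Cd68 at 3.16 ± 0.11, the complement gene C1qb at 2.13 ± 0.10 and the receptor gene Csf1r at 2.01 ± 0.10. Relative to their mean log2 CPM, Slc2a6 stood at -3.71, -3.46 and -3.20 in EPS and at -4.61, -4.78 and -4.46 in controls. These did not overlap, and the difference of 1.16 exceeded the pooled SD of 0.21. Neutrophil and lymphocyte markers had higher median changes, of 8.59 and 6.18. The part of any of these cells in the Slc2a6 result was not tested.

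Slc2a8 (GLUT8), an internal carrier of testis, brain and fat (chromosome 2, 32972990 to 32982083), had 9.49, 15.0 and 10.2 CPM in EPS and 23.1, 17.9 and 22.6 CPM in controls. EPS 2 and control 2 came close without overlap. It fell 1.83-fold (-0.87 ± 0.21, adjusted p = 0.00778). With library totals in place of TMM it was not called, at -0.42 (adjusted p = 0.207), a scaling that moved the median of all genes to 0.41.

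**Figure D3:**
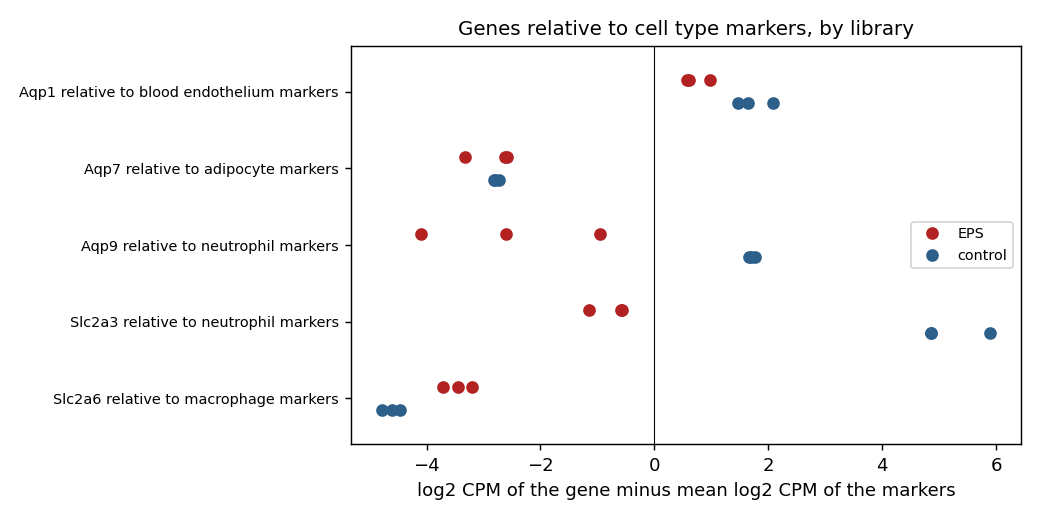
Log2 CPM of a gene minus the mean log2 CPM of a marker list (horizontal axis), with EPS libraries in red above and control libraries in blue below in each row. Aqp7 overlaps between the groups, Aqp1 lies lower in EPS by 1.01 and Slc2a6 higher by 1.16. The control values against neutrophil markers rest on markers near 0.

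Among 8 other glucose and polyol carriers tested, of 11 in the table, 1 rose, 3 fell and 4 did not pass (2 higher and 2 lower with library totals). The share called over all genes was 59.6%. Slc2a4 (GLUT4), the insulin-responsive carrier of fat and muscle, had 26.8, 47.7 and 51.8 CPM in EPS and 392, 382 and 467 CPM in controls (-3.29 ± 0.26, adjusted p = 2.91e-05). The fructose carrier gene Slc2a5 fell by 3.49 ± 0.38, and Slc2a9, a urate carrier, rose by 1.02 ± 0.22. The inositol carrier gene Slc2a13 fell by 0.71 ± 0.24 (adjusted p = 0.0335), a call lost with library totals (0.410), with controls 1 and 2 averaged (0.0931), without any one control (0.0547 to 0.112) and without EPS 3 (0.0667).

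Per length, in CPM per kilobase of exon (RPKM), the 11 measured Slc2a genes summed to 33.5, 45.1 and 48.3 in EPS and 142.5, 137 and 166.5 in controls. Slc2a4 made up 23.0%, 30.4% and 30.8% of that sum in EPS and 79.2%, 80.0% and 80.6% in controls. The share of Slc2a1 was 28.7%, 21.4% and 24.7% in EPS and 3.46%, 3.804% and 3.21% in controls. Slc2a6 made up 15.3%, 12.2% and 13.3% of the sum in EPS, against 0.265%, 0.240% and 0.297% in controls. The RPKM ratio of Slc2a1 to Slc2a4 was 1.25, 0.704 and 0.802 in EPS and 0.0437, 0.0476 and 0.0398 in controls. In every EPS library the insulin-independent Slc2a1 thus stood near Slc2a4, and in every control far under it. The log2 fold change was -3.29 for Slc2a4 and 1.01 for Slc2a1, beside a median of -3.46 for the 9 adipocyte markers. The part of fat cells in these shares was not tested.

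**Figure D4:**
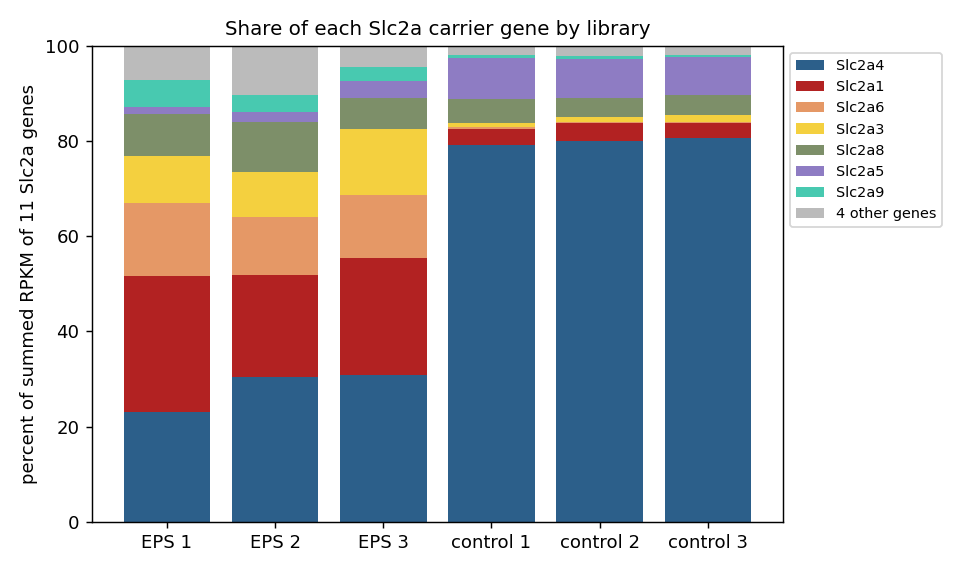
Share of each gene in the summed RPKM of 11 measured Slc2a genes (vertical axis, percent) in each library, EPS left and control right. Slc2a4 takes 23.0% to 30.8% in EPS and 79.2% to 80.6% in control libraries, and Slc2a1, Slc2a3 and Slc2a6 take larger shares in EPS than in control libraries.

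On the same RPKM scale the order of levels in EPS was Aqp1 (51.2 ± 14.8, SD, n = 3), Slc2a1 (10.4 ± 1.33), Aqp7 (6.72 ± 1.69), Slc2a6 (5.68 ± 0.652), Slc2a3 (4.75 ± 1.75), Slc2a8 (3.60 ± 0.943), Aqp9 (2.88 ± 2.51), Aqp11 (0.327 ± 0.0238) and Aqp4 (0.0727 ± 0.0179). From Aqp7 to Aqp9 each neighbour overlapped the next. In controls it was Aqp1 (234 ± 51.6), Aqp7 (69.5 ± 1.69), Slc2a8 (6.60 ± 0.886), Slc2a1 (5.16 ± 0.211), Aqp11 (2.06 ± 0.0751), Slc2a3 (1.70 ± 0.564), Slc2a6 (0.401 ± 0.0849), Aqp9 (0.230 ± 0.0345) and Aqp4 at 0. Only Aqp11 and Slc2a3 overlapped there. With the longest transcript as the length, Aqp9 and Slc2a8 changed places in EPS, Slc2a8 and Slc2a1 overlapped in controls, and Aqp11 and Slc2a3 no longer did.

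**Figure D5:**
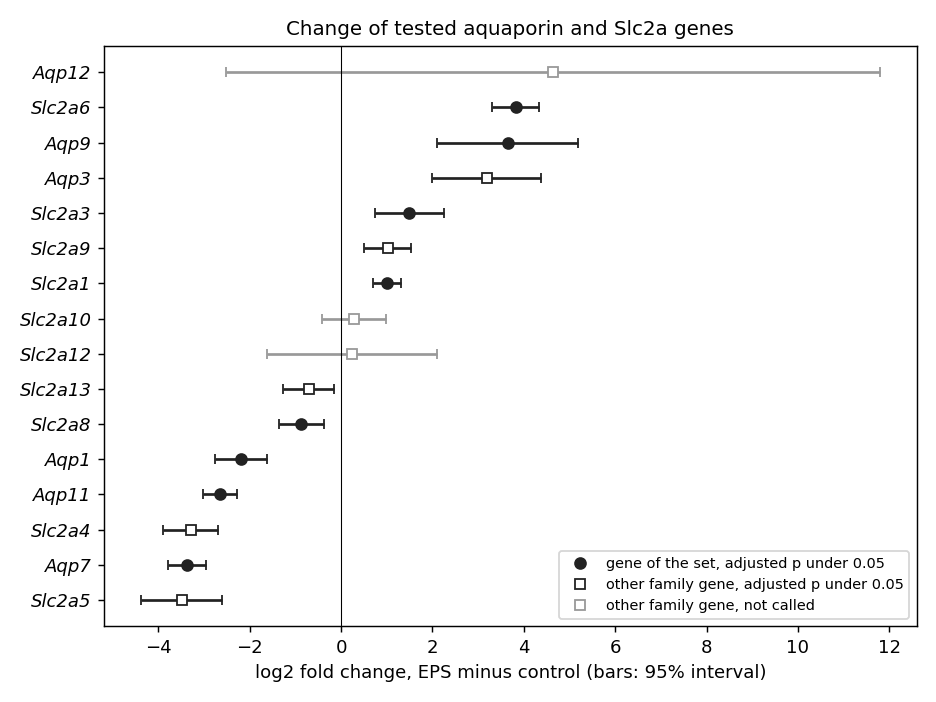
Log2 fold change of EPS minus control with its 95% interval (horizontal axis) for each tested aquaporin and Slc2a gene. Filled circles are the genes of the set, open squares other family genes, and grey marks genes not called. Slc2a4, Slc2a5 and Aqp7 lie lowest, and the interval of Aqp12 is the widest.

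Of 6 tested genes of glucose phosphorylation and release, 3 were higher and 3 lower, where 59.6% of all genes tested were called, and their median log2 fold change was -0.07. With controls 1 and 2 averaged or any one control left out, 2 were higher and 3 lower: the ADP-dependent glucokinase gene Adpgk, named after its values were seen, then had an adjusted p of 0.0692 to 0.0736. The hexokinase gene of muscle and fat, Hk2, had 46.5, 53.2 and 66.2 CPM in EPS and 191, 184 and 237 CPM in controls (-1.88 ± 0.16), while Hk3, the hexokinase of white blood cells, rose to 35.8, 53.2 and 74.5 CPM in EPS, against 4.00, 2.91 and 3.57 CPM in controls (3.96 ± 0.30). Slc37a4, which brings glucose phosphate into the endoplasmic reticulum, fell by 1.05 ± 0.16, and the phosphatase gene G6pc3 by 0.77 ± 0.12. G6pc3 was not called with library totals (adjusted p = 0.156). Hk1, a widespread hexokinase named after its value was seen, rose by 0.62 ± 0.13.

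Of 14 genes that move glucose carriers to and from the cell surface, 3 rose, 6 fell and 5 did not pass (6 and 3 with library totals, 5 and 6 with RLE or upper-quartile factors, 6 and 6 in DESeq2). Over all genes tested, 29.2% were called higher and 30.4% lower. Txnip, which removes Slc2a1 from the surface and is itself induced by glucose, had 214, 283 and 267 CPM in EPS and 1086, 1003 and 1171 CPM in controls (-2.09 ± 0.15, adjusted p = 1.42e-05). Its relative Arrdc4 rose by 0.75 ± 0.11. Tbc1d1, a brake on Slc2a4 vesicles, rose by 1.07 ± 0.11, and Sort1, which builds those vesicles in fat cells, fell by 2.12 ± 0.26.

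Genes of the response to hypertonic medium and of the polyol pathway moved both ways, 3 higher, 4 lower and 3 not called of 10 (5 and 2 with library totals, 5 and 4 without EPS 3). The share called over all genes tested was 59.6%. Slc5a3, the inositol carrier that hypertonic medium induces, fell to 8.52, 9.73 and 8.52 CPM in EPS, against 33.4, 27.8 and 33.3 CPM in controls (-1.82 ± 0.14). The taurine carrier gene Slc6a6 rose by 1.08 ± 0.18. Sord, which turns sorbitol into fructose, fell by 1.20 ± 0.19, and Akr1b3, the aldose reductase that makes sorbitol from glucose, by 0.65 ± 0.15, not called with library totals (adjusted p = 0.486). Nfat5, the factor that drives the hypertonic response, stood at 82.0, 70.4 and 50.3 CPM in EPS and 63.6, 65.0 and 55.2 CPM in controls (0.14 ± 0.18, adjusted p = 0.511), named after its value was seen.

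The genes nearest to each called gene were ranked by the root mean square distance of log2 CPM over the 6 libraries, each gene centred on its mean, among 11260 genes with a mean of at least 5 CPM. Nearest to Aqp7 were Chpt1, an enzyme of phosphatidylcholine synthesis (distance 0.0930), and the lipase gene Mgll (0.102), already listed above. Aqp11 was closest to Atp9a (0.0374), a lipid flippase gene, and Napepld (0.0498), and Aqp1 to the purinergic receptor gene P2rx5 (0.108) and the adaptor gene Sh2b2 (0.118). Slc2a6 was closest to Rassf5 (0.0927) and Pik3cd (0.103), both signalling genes of white blood cells. Slc2a1 lay nearest to Lrwd1 (0.0298) and Arpc5 (0.0504), an actin branching subunit, and Stau2 (0.118) was among the nearest to Slc2a8. Slc2a3 had the neighbours Tagap (0.197) and Dut (0.205). Aqp9, with its high EPS 2, had no close match: Gata3 at 0.397 and Ifit3 at 0.432 were the nearest.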

How the data were processed

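RNA of 6 peritoneum libraries was sequenced after poly-A selection, per the labels' protocols. The authors deposited raw read counts for each gene symbol in 1 column per library, with mm10 as the build, per the submitters' processing notes. Names of the aligner, counter and annotation: not given in the sources used here. Members and lists were chosen with earlier results of these data known.

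Genes were kept by filterByExpr, which left 13980 of 14943, scaled by TMM, and compared by edgeR's quasi-likelihood F-test (edgeR 4.0.16, R 4.3.3) without covariates, with Benjamini-Hochberg adjustment. The ± of a fold change is its SE. RPKM divides CPM by the union of GENCODE vM21 exons (GRCm38, the assembly of mm10), from which coordinates come. Named genes were the 9 members, up to 4 called genes of lowest adjusted p per pathway list, up to 3 per marker list and the 2 nearest by profile; others are marked, and a few that the rule names are not reported here. Simulated data of this comparison had 13890 genes tested, 200 of them changed, and a fixed dispersion (the spread of counts between libraries) of 0.05. On these edgeR recovered 11.9%, 62.7% and 100% of genes changed 1.5, 2 and 4-fold, with 5 false calls. Alternatives were other scalings, no filter, DESeq2 1.42.0, limma-voom (limma 3.58.1), a replicate block, controls 1 and 2 averaged, and leaving out each library. Aqp4 relative to muscle markers was not computed, since Aqp4 failed the filter. RefSeq promoters on GRCm38.p6 were found for 7 of the 9 members.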

Additional observations from a re-analysis of the deposited data

How the results depend on the processing

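Across 14 alternatives, the 8 tested genes kept direction and call in 111 of 112 values. The exception was Slc2a8 with library totals. That scaling also left 2182 genes lower, against 4245 with TMM, and 5657 higher, against 4088. Of the set, it called 4 higher and 3 lower. With no filter on low counts 5 were higher, Aqp4 included. The highest adjusted p of Aqp9 was 0.0413 (limma-voom), and leaving out 1 library put its log2 fold change between 2.64 and 4.03, lowest without EPS 2. The same range was -2.44 to -1.94 for Aqp1, -3.59 to -3.21 for Aqp7, 0.90 to 1.14 for Slc2a1, 1.16 to 1.79 for Slc2a3 and 3.69 to 4.00 for Slc2a6. Whether replicate numbers pair the libraries was not settled: deviations of same-numbered libraries correlated at 0.201, -0.0952 and 0.236. EPS 1 and EPS 3 correlated best with the control of their own number, and EPS 2 with control 3 (0.186). With a replicate block 3947 genes were higher and 4166 lower, and of the set 4 and 4. Relative to marker medians in place of means, the difference was 0.33 for Aqp7, -6.47 for Slc2a3 and 1.46 for Slc2a6, and with a prior count of 0.5 it was -6.77 for Slc2a3, whose control markers were near 0. The cause was not tested. With 3 libraries a group, changes of 2-fold and under may be missed. The simulation missed part of them, but it changed only 200 genes, while 59.6% of genes tested were called in the data. Its recovery rates therefore do not carry over to these data, where Slc2a8 was called at 1.83-fold.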
